A study of Mus musculus with 6 samples.

Results

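The HOX clusters are the 4 chromosomal arrays of Hox homeobox genes, and they were followed here in cultured mouse ovarian surface epithelial cells labelled as knockout for the kinases LATS1 and LATS2. The members were all protein-coding genes named Hoxa, Hoxb, Hoxc or Hoxd with a number, which gave 39 genes of 48440 in the count table. There were 11 in Hoxa, 10 in Hoxb, 9 in Hoxc and 9 in Hoxd. On the GRCm38 build the member genes spanned chr6:52155590-52260880 (Hoxa, minus strand), chr11:96194316-96368256 (Hoxb, plus strand), chr15:102921103-103036852 (Hoxc, plus strand) and chr2:74668310-74765142 (Hoxd, plus strand).

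Hox genes encode homeodomain transcription factors that give cells along the head-to-tail axis their regional identity. Within a cluster the genes lie in the order in which they are used along that axis, and genes at the same place in different clusters form a paralog group, numbered 1 (anterior) to 13 (posterior). Adult cells often keep the Hox pattern of the place they came from, and Polycomb and trithorax proteins hold it off or on. In the female tract, posterior Hoxa genes are known for patterning the oviduct, uterus and cervix from the Müllerian duct, whereas the ovarian surface epithelium comes from the coelomic lining.

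The knockout cells had received an adenovirus that carries Cre recombinase and GFP (Ad-Cre-GFP, 3 libraries, genotype given as Lats1/2 knockout), and the controls an adenovirus that carries GFP alone (Ad-GFP, 3 libraries, genotype given as WT). RNA was taken 7 days after transduction in both groups, so the controls share the virus and GFP. They do not share Cre, so effects of Cre itself and of kinase loss cannot be told apart here. The comparison asks how loss of both Hippo pathway kinases changes the transcripts of these cells. The sources used here do not give the age and strain of the mice, the floxed alleles or whether replicates were separate cultures. P-values therefore measure the spread between these libraries, and that spread may be technical. LATS1 and LATS2 are the kinases that restrain the coactivators YAP and TAZ. Lats1 had 38.6, 36.0 and 36.6 CPM (TMM-scaled counts for each 1e+06 of the library) in Ad-Cre-GFP cells, against 159, 151 and 168 CPM in Ad-GFP cells. Lats2 had 98.8, 101 and 96.7 CPM in Ad-Cre-GFP cells, against 127, 131 and 131 CPM in Ad-GFP cells. Both were lower in every Ad-Cre-GFP library, but how far counts over a whole gene read its deleted exons is not known here. The 3 Ad-Cre-GFP libraries held 27734527 to 30304033 counts and the 3 Ad-GFP libraries 18690235 to 25363462, so depth moved with the group. Where a library has 0 counts of a gene, up to 3 remain possible, which is 0.0990 to 0.161 CPM. Such limits and the intervals on ratios of counts cover counting error only.

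The cells expressed a central set of Hox genes. Set per kb of exon so that genes can be compared, the summed level of all 39 members was 110.8 ± 0.18 CPM per kb in Ad-Cre-GFP cells and 123.9 ± 2.28 CPM per kb in Ad-GFP cells (SD, n = 3 each). Paralog groups 4 to 8 made 65.1% of that sum in Ad-Cre-GFP cells and 65.3% in Ad-GFP cells. Paralog group 9 made 28.5% in Ad-Cre-GFP cells and 28.1% in Ad-GFP cells. Groups 1 to 3, of the hindbrain and neck, made 3.78% in Ad-Cre-GFP cells and 3.94% in Ad-GFP cells, and the posterior groups 10 to 13 made 2.71% in Ad-Cre-GFP cells and 2.63% in Ad-GFP cells. The share of each stretch of the axis thus differed by less than 1 percentage point between the groups of libraries.

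By cluster, Hoxb held most of the signal, with 58.5 ± 0.848 CPM per kb in Ad-Cre-GFP cells (52.7% of the sum) and 64.0 ± 1.08 in Ad-GFP cells (51.7%). The Hoxc sum was 22.7 ± 0.771 CPM per kb in Ad-Cre-GFP cells and 32.4 ± 1.34 in Ad-GFP cells, a ratio of 0.702. Its share of all Hox signal was 20.5% in Ad-Cre-GFP cells and 26.1% in Ad-GFP cells. The Hoxd sum was 15.6 ± 0.444 CPM per kb in Ad-Cre-GFP cells and 13.5 ± 0.237 in Ad-GFP cells, a ratio of 1.15. The Hoxa sum was 14.01 ± 0.131 CPM per kb in Ad-Cre-GFP cells and 13.97 ± 0.390 in Ad-GFP cells. So the libraries of the groups did not overlap for the Hoxb, Hoxc and Hoxd sums, and did overlap for Hoxa.

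**Figure D1:**
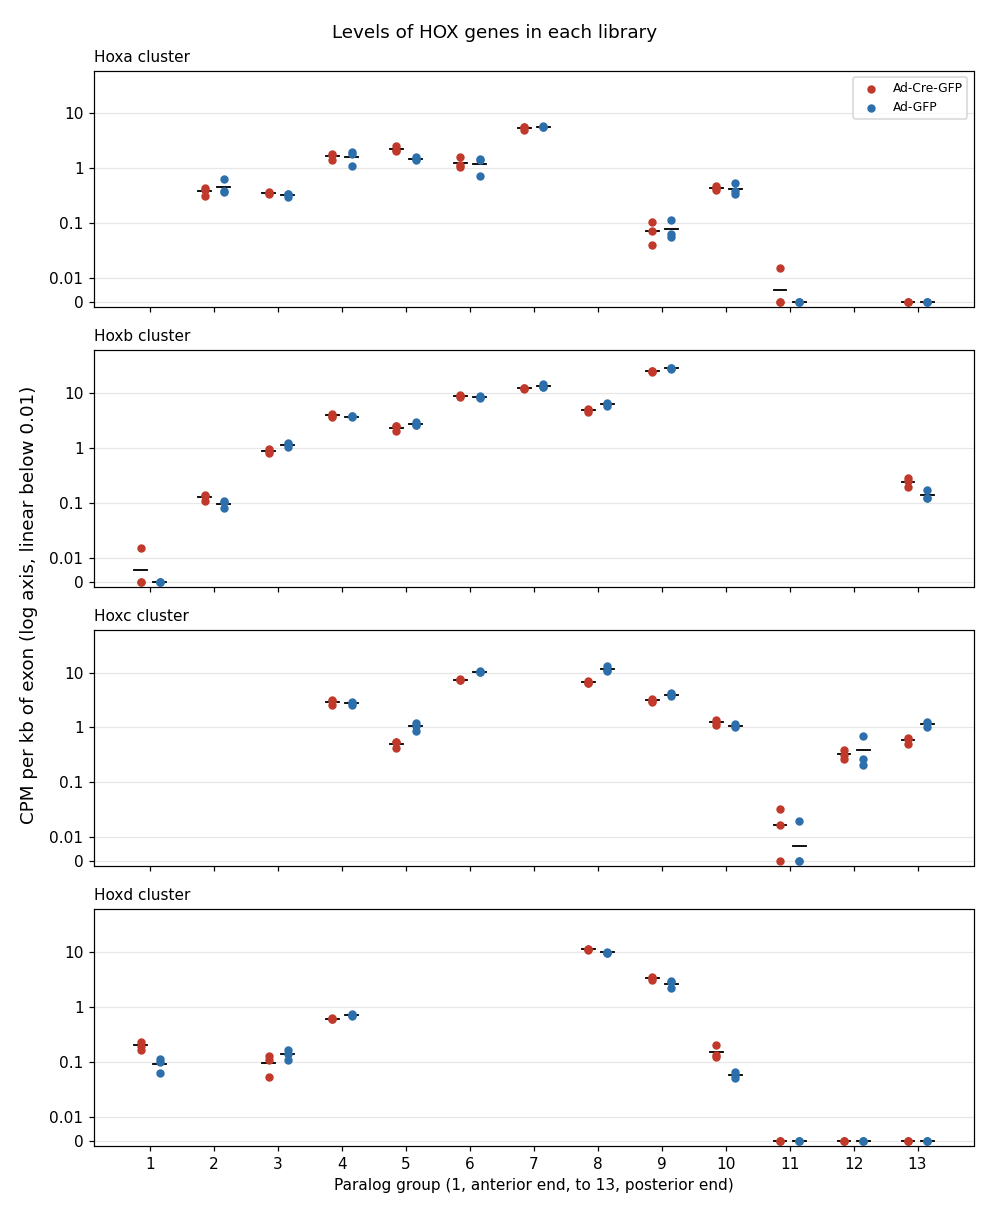
Levels of 38 HOX genes in CPM per kb of exon (log axis, linear below 0.01), by paralog group along the x axis and with 1 panel per cluster; each point is a library, Ad-Cre-GFP left of Ad-GFP, and bars are group means. Levels peak at paralog groups 6 to 9, with Hoxb9 highest at 25.05 CPM per kb in Ad-Cre-GFP cells and 28.1 in Ad-GFP cells, and genes near the posterior end of Hoxa and Hoxd lie at 0.

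Across all 39 members, 28 passed the filter on low counts and were tested. Of these, 3 were called higher in Ad-Cre-GFP cells (Hoxa5, Hoxd8 and Hoxd9), 9 were called lower (among them Hoxb3, Hoxb8, Hoxb9, Hoxc5, Hoxc6, Hoxc8, Hoxc9 and Hoxc13) and 16 were not called. The threshold was an adjusted p of 0.05 in edgeR's quasi-likelihood test with Benjamini-Hochberg adjustment over all genes. Calls made up 42.9% of the tested members, where 69.8% of all 14811 tested genes were called, 34.0% higher and 35.8% lower. Among the 11095 genes with levels in the members' range, 66.4% were called. The share of members called was below both of these.

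Changes of the members were also modest in size. The median log2 fold change (Ad-Cre-GFP over Ad-GFP) was -0.12 over the 28 members and -0.01 over all genes, and the median absolute value was 0.23 for the members and 0.35 for all genes. Just 1 member, Hoxc5, was called with a change of at least 2-fold, where 13.8% of all genes were. The libraries of the groups did not overlap for 15 members, 4 higher and 11 lower, beside 73.0% of all genes. Of the 16 members not called, 14 had a 95% interval that lay within a log2 change of -1 to 1. Hoxb13 passed the filter through its level in the Ad-Cre-GFP libraries alone, and Hoxd3 through the Ad-GFP libraries alone.

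**Figure D2:**
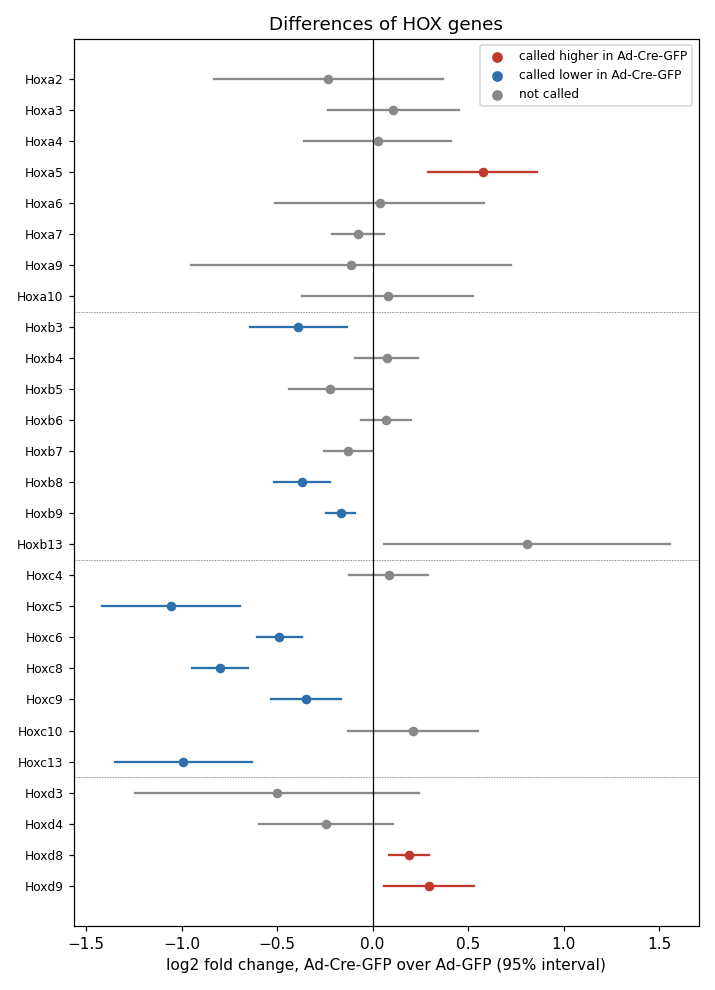
Log2 fold change (Ad-Cre-GFP over Ad-GFP) of 27 tested HOX genes, ordered down the page by cluster and paralog group, with 95% intervals; red marks genes called higher, blue called lower and grey not called. The values run from -1.05 (Hoxc5) to 0.81 (Hoxb13), and 5 of 7 Hoxc genes lie below 0 with intervals that do not reach it.

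Hoxc was the cluster with most calls, all of them lower: 5 of its 7 tested members fell and 2 were not called, with a median log2 change of -0.49. The 71.4% called is near the 69.8% of all genes, of which 35.8% were called lower. Hoxc8, which patterns the lower thorax, had 18.3, 18.3 and 20.002 CPM in Ad-Cre-GFP cells, against 29.8, 31.9 and 36.9 CPM in Ad-GFP cells. Hoxc6, a thoracic and mammary patterning gene, had 17.7, 17.4 and 18.4 CPM in Ad-Cre-GFP cells, against 24.2, 25.04 and 25.8 CPM in Ad-GFP cells. For these most abundant Hoxc genes every Ad-Cre-GFP library lay below every Ad-GFP library. Hoxc8 fell by 0.80 ± 0.07 on the log2 scale (SE, adjusted p = 6.54e-09) and Hoxc6 fell by 0.49 ± 0.06 (adjusted p = 8.39e-08).

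Hoxc5, expressed at a lower level, had 1.68, 1.30 and 1.64 CPM in Ad-Cre-GFP cells, against 2.69, 3.25 and 3.71 CPM in Ad-GFP cells. Hoxc9, which in spinal cord marks thoracic motor neurons, had 8.11, 7.16 and 7.41 CPM in Ad-Cre-GFP cells, against 10.1, 9.70 and 8.96 CPM in Ad-GFP cells. Hoxc13, known for hair and nail keratin control, had 1.23, 1.51 and 1.57 CPM in Ad-Cre-GFP cells, against 3.10, 2.54 and 2.97 CPM in Ad-GFP cells. None of the 3 genes overlapped between the groups. Hoxc5 fell by 1.05 ± 0.17 (adjusted p = 1.31e-05), Hoxc13 fell by 0.99 ± 0.17 (adjusted p = 2.85e-05) and Hoxc9 fell by 0.35 ± 0.09 (adjusted p = 0.00135), all on the log2 scale.

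The genes that fell were not the whole cluster. Hoxc4, the anterior end of Hoxc, had 6.64, 7.997 and 7.74 CPM in Ad-Cre-GFP cells, against 7.29, 6.53 and 7.37 CPM in Ad-GFP cells, with a log2 change of 0.08 ± 0.10. Hoxc10, a lumbar motor neuron gene, had 2.12, 2.38 and 2.63 CPM in Ad-Cre-GFP cells, against 2.19, 2.03 and 1.91 CPM in Ad-GFP cells, with a log2 change of 0.21 ± 0.16. Both overlapped between the groups, and their 95% intervals ran from -0.12 to 0.29 and from -0.13 to 0.55. Per kb of exon, Hoxc8 had 6.66 CPM in Ad-Cre-GFP cells and 11.6 in Ad-GFP cells, and Hoxc6 had 7.40 in Ad-Cre-GFP cells and 10.4 in Ad-GFP cells. Over the longest transcript in place of all exons, Hoxc8 had 8.48 CPM per kb in Ad-Cre-GFP cells and 14.8 in Ad-GFP cells, and Hoxc6 had 11.3 in Ad-Cre-GFP cells and 15.8 in Ad-GFP cells. The order of the pair in Ad-GFP cells therefore depends on the length used. The annotated Hoxc5 and Hoxc10 models share exon bases on 1 strand, with 94.6% of the Hoxc5 and 91.3% of the Hoxc10 exon bases free of any other gene.

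**Figure D3:**
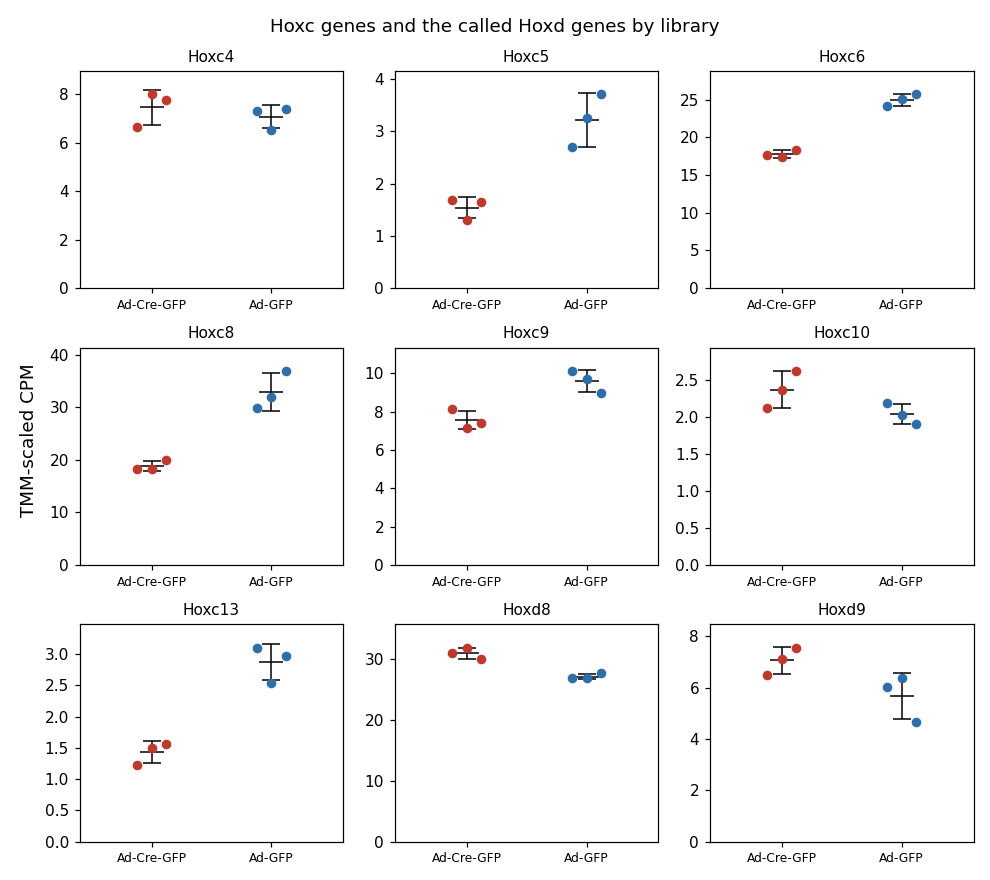
TMM-scaled CPM (y axis, from 0, 1 scale per panel) of the 7 tested Hoxc genes and of Hoxd8 and Hoxd9, with 1 point per library, Ad-Cre-GFP left of Ad-GFP, and mean ± SD (n = 3). Hoxc5, Hoxc6, Hoxc8, Hoxc9 and Hoxc13 lie lower in all Ad-Cre-GFP libraries, Hoxc4 and Hoxc10 overlap, and Hoxd8 and Hoxd9 lie higher in all Ad-Cre-GFP libraries.

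In Hoxb, 3 of 8 tested members fell and 5 were not called, with a median log2 change of -0.15. The 37.5% called lower is near the 35.8% of all genes, and 73.0% of all genes did not overlap between the groups. Hoxb9, the most abundant member per kb, is known for rib identity and mammary growth. It had 65.6, 63.4 and 64.4 CPM in Ad-Cre-GFP cells, against 71.3, 73.6 and 72.3 CPM in Ad-GFP cells. Hoxb8, which acts in myeloid progenitors and microglia as well as the body axis, had 11.97, 12.8 and 13.6 CPM in Ad-Cre-GFP cells, against 17.5, 15.6 and 16.5 CPM in Ad-GFP cells. Hoxb3, a hindbrain and neck gene, had 3.66, 3.45 and 3.98 CPM in Ad-Cre-GFP cells, against 4.97, 4.42 and 5.19 CPM in Ad-GFP cells. The Ad-Cre-GFP libraries were below all Ad-GFP libraries for each of these genes, by small margins for Hoxb9. Hoxb8 fell by 0.37 ± 0.07 (adjusted p = 8.95e-05), Hoxb9 fell by 0.17 ± 0.04 (adjusted p = 0.000287) and Hoxb3 fell by 0.39 ± 0.12 (adjusted p = 0.00718) on the log2 scale. For Hoxb3 the adjusted p was 0.0733 with DESeq2, and 47.1% of its exon bases are free of another gene, the rest being shared with Hoxb3os on the opposite strand.

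Hoxb4, Hoxb5, Hoxb6 and Hoxb7 were not called. Hoxb4, a regulator of blood stem cell growth, had 10.6, 9.97 and 9.56 CPM in Ad-Cre-GFP cells, against 9.25, 9.70 and 9.70 CPM in Ad-GFP cells. Hoxb6 had 18.4, 17.3 and 16.6 CPM in Ad-Cre-GFP cells, against 16.5, 17.1 and 16.2 CPM in Ad-GFP cells. These genes overlapped between the groups, each with a log2 change of 0.07. Hoxb5, a gene of the gut nervous system and lung, had 6.94, 6.89 and 5.66 CPM in Ad-Cre-GFP cells, against 7.16, 7.36 and 8.38 CPM in Ad-GFP cells. Hoxb7 had 18.7, 19.2 and 18.5 CPM in Ad-Cre-GFP cells, against 19.96, 19.7 and 22.3 CPM in Ad-GFP cells. Neither overlapped, yet neither was called, with log2 changes of -0.22 ± 0.10 (adjusted p = 0.0633) for Hoxb5 and -0.13 ± 0.06 (adjusted p = 0.0667) for Hoxb7. Hoxb7 was called without Ad-GFP replicate 2 (adjusted p = 0.0421). Per kb, the levels of Hoxb5, Hoxb6, Hoxb7, Hoxb8 and Hoxb9 were 2.33, 8.88, 12.2, 4.86 and 25.05 CPM in Ad-Cre-GFP cells and 2.74, 8.44, 13.4, 6.28 and 28.1 CPM in Ad-GFP cells, the same order in both.

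In Hoxa, 9 members were tested, with a median log2 change of 0.03 and Hoxa5 the single called rise, beside 34.0% of all genes called higher. Hoxa5, which controls lung and respiratory tract development, had 4.75, 3.88 and 3.98 CPM in Ad-Cre-GFP cells, against 3.05, 2.74 and 2.65 CPM in Ad-GFP cells. All Ad-Cre-GFP libraries were above all Ad-GFP libraries, and Hoxa5 rose by 0.58 ± 0.14 on the log2 scale (adjusted p = 0.000795). Its counts were 139, 116 and 109 in Ad-Cre-GFP libraries and 67, 70 and 50 in Ad-GFP libraries.

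Hoxa7 is the most abundant Hoxa gene per kb (5.43 CPM in Ad-Cre-GFP cells and 5.72 in Ad-GFP cells) and acts in the thoracic trunk. It had 14.5, 16.1 and 16.3 CPM in Ad-Cre-GFP cells, against 17.0, 16.4 and 15.95 CPM in Ad-GFP cells, with a log2 change of -0.07 ± 0.07. Hoxa3, needed for thymus and parathyroid, had 2.12, 2.04 and 2.23 CPM in Ad-Cre-GFP cells, against 1.82, 2.03 and 2.07 CPM in Ad-GFP cells. Hoxa4 had 2.84, 2.88 and 2.26 CPM in Ad-Cre-GFP cells, against 1.78, 3.17 and 2.86 CPM in Ad-GFP cells. These 3 genes overlapped between the groups. Hoxa6 had 1.40, 0.937 and 0.985 CPM in Ad-Cre-GFP cells, against 1.28, 1.25 and 0.636 CPM in Ad-GFP cells. Hoxa10, which in uterus is required for implantation, had 1.40, 1.34 and 1.53 CPM in Ad-Cre-GFP cells, against 1.28, 1.10 and 1.75 CPM in Ad-GFP cells. Their log2 changes were 0.04 ± 0.26 for Hoxa6 and 0.08 ± 0.21 for Hoxa10, with overlapping libraries.

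In Hoxd, 2 of 4 tested members rose and 2 were not called, beside 34.0% of all genes called higher. Of all genes, 73.0% did not overlap between the groups. Hoxd8, a trunk gene, had 30.9, 31.8 and 29.9 CPM in Ad-Cre-GFP cells, against 26.8, 26.8 and 27.6 CPM in Ad-GFP cells. Its neighbour Hoxd9, which acts in the lumbar axis and the forelimb, had 6.499, 7.13 and 7.56 CPM in Ad-Cre-GFP cells, against 6.02, 6.38 and 4.66 CPM in Ad-GFP cells. Neither overlapped between the groups, and Ad-GFP replicate 3 was the lowest for Hoxd9. Hoxd8 rose by 0.19 ± 0.05 (adjusted p = 0.00185) and Hoxd9 rose by 0.29 ± 0.11 (adjusted p = 0.0251) on the log2 scale. The Hoxd9 call was not kept with DESeq2 (adjusted p = 0.0946), without Ad-GFP replicate 3 (0.144) or without Ad-Cre-GFP replicate 3 (0.0729). Hoxd4, a gene of the neck vertebrae, had 1.74, 1.84 and 1.79 CPM in Ad-Cre-GFP cells, against 2.01, 2.23 and 2.12 CPM in Ad-GFP cells. It did not overlap, and its log2 change of -0.24 ± 0.17 was not called (adjusted p = 0.201). Hoxd4 and Hoxd3 share exons on 1 strand, and 47.7% of the Hoxd4 and 37.2% of the Hoxd3 exon bases are free of another gene.

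Paralogs of 1 group did not move as a unit. In paralog group 8, the log2 change was -0.37 for Hoxb8, -0.80 for Hoxc8 and 0.19 for Hoxd8, so a pair of called falls stood beside a called rise. In group 9, it was -0.11 for Hoxa9, -0.17 for Hoxb9, -0.35 for Hoxc9 and 0.29 for Hoxd9. In group 5, Hoxa5 rose by 0.58, whereas Hoxb5 changed by -0.22 without a call and Hoxc5 fell by 1.05. In group 4, all 4 paralogs were tested and none was called, with log2 changes of 0.03 for Hoxa4, 0.07 for Hoxb4, 0.08 for Hoxc4 and -0.24 for Hoxd4.

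The promoters of the 4 called genes with an entry in the table of promoters are shown. They are RefSeq windows of 300 bases on GRCm38.p6 around the gene start, with CpG dinucleotides in capitals, for Hoxa5 (chr6:52204538-52204837, minus strand), Hoxd8 (chr2:74704365-74704664, plus strand) and Hoxd9 (chr2:74697513-74697812, plus strand), which rose, and Hoxb8 (chr11:96281655-96281954, plus strand), which fell.
Hoxa5: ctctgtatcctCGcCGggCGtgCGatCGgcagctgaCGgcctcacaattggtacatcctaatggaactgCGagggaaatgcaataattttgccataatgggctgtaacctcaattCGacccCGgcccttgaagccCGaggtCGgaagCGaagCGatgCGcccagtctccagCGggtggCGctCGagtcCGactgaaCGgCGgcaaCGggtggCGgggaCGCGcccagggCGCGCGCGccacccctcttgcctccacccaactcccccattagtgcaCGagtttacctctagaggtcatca
Hoxd8: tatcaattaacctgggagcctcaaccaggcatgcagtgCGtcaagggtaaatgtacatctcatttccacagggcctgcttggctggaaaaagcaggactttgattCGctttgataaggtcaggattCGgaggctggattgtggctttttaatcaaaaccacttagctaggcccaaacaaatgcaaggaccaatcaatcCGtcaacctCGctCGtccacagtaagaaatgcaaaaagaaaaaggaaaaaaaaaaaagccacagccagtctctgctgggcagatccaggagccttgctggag
Hoxd9: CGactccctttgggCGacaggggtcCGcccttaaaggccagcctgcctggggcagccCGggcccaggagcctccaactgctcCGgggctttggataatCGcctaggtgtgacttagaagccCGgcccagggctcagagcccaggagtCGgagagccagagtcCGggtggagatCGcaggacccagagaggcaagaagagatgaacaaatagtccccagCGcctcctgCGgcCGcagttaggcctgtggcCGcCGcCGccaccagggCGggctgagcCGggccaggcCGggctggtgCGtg
Hoxb8: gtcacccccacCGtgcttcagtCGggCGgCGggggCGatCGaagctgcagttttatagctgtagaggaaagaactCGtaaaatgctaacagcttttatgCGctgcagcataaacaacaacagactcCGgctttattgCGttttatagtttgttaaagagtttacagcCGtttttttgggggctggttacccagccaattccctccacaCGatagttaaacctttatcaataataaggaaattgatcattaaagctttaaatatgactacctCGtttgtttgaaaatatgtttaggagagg

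The windows hold 29 CpG (Hoxa5), 6 (Hoxd8), 20 (Hoxd9) and 13 (Hoxb8), so the neighbours Hoxd8 and Hoxd9 differ in CpG content although both rose. In the table of promoters 22 of the 39 members had an entry, 24 windows in all, with a median of 14.5 CpG and a range of 4 to 45, where the median of all 32851 promoters was 7. On both strands, the TEAD motif GGAATG, bound by the DNA partners of YAP, was found in 2 of the 24 windows (Hoxa9 and Hoxd10) and in 14.7% of all promoters. The motif TGATTNAT, bound by PBX-HOX pairs, was found in 2 windows (Hoxa2 and Hoxd11) and in 3.22% of all promoters. The retinoic acid receptor element of AGGTCA repeated after any 5 bases was found in none, and in 0.00913% of all promoters. No window held more than 1 of these motifs. Of the called members, only Hoxa5, Hoxb8, Hoxd8 and Hoxd9 had a window, and none of these windows held a motif. The called Hoxc genes, Hoxb3 and Hoxb9 had no entry and were not searched. A window without a match lacks these letters and nothing more can be read from it.

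The other 15 members were at low levels. Hoxa2, Hoxa9, Hoxb13 and Hoxd3 were tested but stayed under 1 CPM on average in both groups, and none was called. Hoxb13, the prostate and tail gene, had 16, 13 and 17 counts in Ad-Cre-GFP libraries and 6, 7 and 7 in Ad-GFP libraries. These counts do not overlap, and the log2 change was 0.81 ± 0.36 (adjusted p = 0.0512), with a call without Ad-Cre-GFP replicate 2 (adjusted p = 0.0425). Hoxa2, which patterns the second pharyngeal arch, had 0.547 to 0.770 CPM in Ad-Cre-GFP cells and 0.665 to 1.11 CPM in Ad-GFP cells. Hoxa9 had 0.219 to 0.581 CPM in Ad-Cre-GFP cells and 0.318 to 0.638 CPM in Ad-GFP cells. Hoxd3 had 0.219 to 0.535 CPM in Ad-Cre-GFP cells and 0.456 to 0.689 CPM in Ad-GFP cells. The last 3 overlapped, with log2 changes of -0.23 ± 0.29, -0.11 ± 0.40 and -0.50 ± 0.36.

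Among the 11 untested members, Hoxd10, a limb and lumbar gene, had 24 counts over the Ad-Cre-GFP libraries and 7 over the Ad-GFP libraries, a depth-corrected ratio of 2.63 (exact 95% interval 1.10 to 7.23). Hoxd1, a pain neuron gene in mouse, had 32 counts over the Ad-Cre-GFP libraries and 11 over the Ad-GFP libraries, a ratio of 2.23 (1.10 to 4.91). Both were higher in all Ad-Cre-GFP libraries, but on few counts. Hoxb2 had 38 counts over the Ad-Cre-GFP libraries and 22 over the Ad-GFP libraries (ratio 1.33, 0.764 to 2.35). Hoxc12 had 29 counts over the Ad-Cre-GFP libraries and 27 over the Ad-GFP libraries (ratio 0.824, 0.471 to 1.45). Hoxa11 and Hoxb1 had 1 count each and Hoxc11 had 4 counts over all 6 libraries. Hoxa13, Hoxd11, Hoxd12 and Hoxd13, the genes of the digits and the genital and hind gut end of the axis, had 0 counts in all 6 libraries. Posterior Hoxa and Hoxd genes from group 11 onward were thus not detectable at this depth or nearly so, while Hoxc13 and Hoxb13 were measured.

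Noncoding and other genes inside the clusters showed no called change with the main settings. The annotation places 46 non-Hox genes there, of which 21 had 0 counts in all libraries and 13 were tested. None of these 13 was called with the main edgeR settings, beside 69.8% of all tested genes. Some were called under other settings, edgeR fits among them, as given with their values. Some had few counts, such as Gm27861 and Haglr with 59 each over all 6 libraries, so a change could be missed there. The lincRNA Gm53, upstream of Hoxb9, had 30.6, 30.2 and 30.2 CPM in Ad-Cre-GFP cells, against 29.2, 31.3 and 30.9 CPM in Ad-GFP cells. It overlapped and had a log2 change of -0.01 ± 0.05, next to the called fall of Hoxb9. Hotairm1, an antisense RNA at the anterior end of Hoxa known for control of anterior Hoxa genes in myeloid cells, had 4.72, 4.48 and 4.64 CPM in Ad-Cre-GFP cells, against 3.69, 4.54 and 4.93 CPM in Ad-GFP cells, with overlapping libraries. Hoxd3os1 had a log2 change of -0.32 ± 0.16 (adjusted p = 0.0837), and was called without Ad-GFP replicate 1 (adjusted p = 0.0271). The processed pseudogene Gm11539 had 60.7, 54.7 and 68.4 CPM in Ad-Cre-GFP cells, against 55.5, 57.2 and 52.7 CPM in Ad-GFP cells. Its counts are uncertain, as reads may come from a parent gene, and it was called by DESeq2 (adjusted p = 0.0460), without a low-count filter (0.000611), without robust dispersion (0.0436) and without Ad-Cre-GFP replicate 2 (0.000617). The other tested genes Gm27861, Gm27477, Hoxaas2, Gm15050, Hoxaas3, Hoxb5os, Gm28230 and Haglr had log2 changes between -0.42 and 0.22. Hotair, the lincRNA between Hoxc12 and Hoxc11, had 0 counts in all libraries.

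The clusters also carry microRNA genes whose products are known to act on Hox messages. Mature forms were not measured, since poly(A) libraries do not capture them. Their sequences follow because some of the genes that fell or rose carry matches to them. They are from RefSeq, written 5′ to 3′, with the seed (bases 2 to 8) in capitals.
miR-196a-5p: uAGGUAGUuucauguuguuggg
miR-196b-5p: uAGGUAGUuuccuguuguuggg
miR-10a-5p: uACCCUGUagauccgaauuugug
miR-10b-5p: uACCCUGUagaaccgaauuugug

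The miR-196 pair shares 1 seed and the miR-10 pair another. Reads on the Mir196a-1 hairpin gene (chr11:96265164-96265265, plus strand), which lies between Gm53 and Hoxb9, numbered 91, 89 and 58 in Ad-Cre-GFP libraries and 62, 94 and 72 in Ad-GFP libraries. These counts would come from a longer transcript over the hairpin, and strand was not given. The log2 change was -0.32 ± 0.16 (adjusted p = 0.0846), with a call without Ad-GFP replicate 1 (adjusted p = 0.0305).

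The near-perfect miR-196a site of Hoxb8 is known in mouse embryos, where it leads to cleavage of the message. It is shown with the best miR-196a window in the Hoxd8 3′UTR and the seed-matched sites of Hoxc8, as DNA of the gene's strand on GRCm38, with bases that pair with miR-196a in capitals.
Hoxb8 at chr11:96284888-96284909: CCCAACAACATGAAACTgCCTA
Hoxd8 at chr2:74707120-74707141: CtCAACAACATaAActTcCtaA
Hoxc8 at chr15:102992976-102992997: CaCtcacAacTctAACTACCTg
Hoxc8 at chr15:102993733-102993754: taaAtCtttAacAtACTACCTA

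The Hoxb8 site pairs at 21 of 22 bases, with a G:U pair at miRNA position 5, and the Hoxd8 window pairs at 15 bases with 3 G:U pairs. Hoxb8 fell and Hoxd8 rose. The Hoxd8 window was picked over its whole 3′UTR and has no seed match. The best windows of other members, among them Hoxa4 and Hoxa7, pair at 14 bases, so pairing sets Hoxd8 little apart from these. The seed match ACTACCT was present in the 3′UTR of 8 of 39 members (20.5%), which were Hoxa4, Hoxa5, Hoxa7, Hoxa9, Hoxb1, Hoxb6, Hoxb7 and Hoxc8, and of 2.88% of 15780 genes with 3′UTRs of 30 to 1987 bases. The median 3′UTR was 960 bases for the members and 552 for those genes, so the shares are not matched on length. Of the 7 tested members with a match, Hoxa5 rose, Hoxc8 fell and 5 were not called. Calls made up 42.9% of all tested members and 69.8% of all genes. The Hoxa5 site (chr6:52202118-52202139), not printed above, pairs at 11 bases. The miR-10 seed match ACAGGGT was in 4 members (10.3%), among them Hoxa3, Hoxb3 and Hoxd1, and in 6.32% of the genes. Hoxb3 fell, Hoxa3 was not called and Hoxd1 was not tested.

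Genes beyond the ends of the clusters moved in both directions. Of the nearest 3 protein-coding neighbours on each side, 24 genes in all, 20 were tested, 8 of them higher, 8 lower and 4 not called, beside 69.8% of all genes called. Ttll6, a tubulin polyglutamylase gene 28.9 kb beyond Hoxb13, had 58 counts over the Ad-Cre-GFP libraries and 6 over the Ad-GFP libraries, with a fitted log2 change of 2.82 ± 0.49 (adjusted p = 2.98e-05). It passed the filter on low counts through the Ad-Cre-GFP libraries alone, where it is high, so its place among the tested genes rested on that group. Nfe2l2, which encodes the oxidative stress factor NRF2 and lies 910 kb from Hoxd1, had 96.3, 93.5 and 96.7 CPM in Ad-Cre-GFP cells, against 204, 198 and 204 CPM in Ad-GFP cells. It fell by 1.08 ± 0.03 (adjusted p = 6.65e-18). Next to Hoxc, the cluster with most falls, Calcoco1 on the posterior side fell by 0.53 ± 0.05 and Smug1 on the anterior side fell by 0.30 ± 0.07. Beside Hoxd, Lnpk on the posterior side rose by 0.63 ± 0.05, and Mtx2 on the anterior side had a log2 change of 0.02 ± 0.04 and was not called. These last 4 were picked for their place, after their values were seen.

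HOX proteins bind DNA with TALE homeodomain partners (the PBX, MEIS and PREP proteins, with TGIF as related repressors). Of 11 such genes, 10 were tested, of which 2 rose, 5 fell and 3 were not called, with a median log2 change of -0.32. Beside the 69.8% of all genes called, that count does not set the partners apart. Pbx2 had 18.5, 19.1 and 17.8 CPM in Ad-Cre-GFP cells, against 29.1, 28.5 and 31.2 CPM in Ad-GFP cells, and fell by 0.67 ± 0.06 (adjusted p = 4.72e-10). Tgif1 had 25.4, 24.1 and 24.7 CPM in Ad-Cre-GFP cells, against 31.0, 32.98 and 32.97 CPM in Ad-GFP cells, and fell by 0.39 ± 0.05 (adjusted p = 7.45e-07). The PBX partners thus did not share a direction, since Pbx3, named after its values were seen, rose by 0.60 ± 0.08. The count of rises was 1 with DESeq2 and without Ad-Cre-GFP replicate 1, Ad-Cre-GFP replicate 3, Ad-GFP replicate 2 or Ad-GFP replicate 3, and the count of falls was 3 with DESeq2. The Evx genes at the posterior ends of Hoxa and Hoxd, and the ParaHox genes Cdx1, Cdx2, Cdx4, Gsx1, Gsx2 and Pdx1, had 0 counts in all libraries.

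Polycomb complexes keep unused Hox genes silent. PRC2 methylates histone H3 at lysine 27, and of its 12 genes, all tested, 8 rose, 3 fell and 1 was not called, with a median log2 change of 0.29, where 34.0% of all genes were called higher and 35.8% lower. Ezh2, the methyltransferase of dividing cells, had 132, 132 and 132 CPM in Ad-Cre-GFP cells, against 88.5, 89.1 and 84.3 CPM in Ad-GFP cells, and rose by 0.60 ± 0.03 (adjusted p = 4.04e-13). Its paralog Ezh1 had 20.5, 18.7 and 19.5 CPM in Ad-Cre-GFP cells, against 41.9, 41.1 and 42.6 CPM in Ad-GFP cells, and fell by 1.10 ± 0.05 (adjusted p = 2.64e-14). Jarid2, which recruits PRC2, had 14.7, 15.7 and 14.96 CPM in Ad-Cre-GFP cells, against 34.3, 30.4 and 35.4 CPM in Ad-GFP cells, and fell by 1.13 ± 0.06 (adjusted p = 4.16e-13). So both methyltransferase genes changed without overlap, in opposite directions. Of 17 PRC1 genes, whose complex ubiquitinates histone H2A, 4 rose, 4 fell and 9 were not called, fewer calls than the 69.8% of all genes, with a median log2 change of -0.03. Pcgf6 rose by 0.58 ± 0.06 and Pcgf5 rose by 0.35 ± 0.05, and Ring1, a ubiquitin ligase subunit, fell by 0.43 ± 0.06.

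Trithorax and MLL proteins keep Hox genes active. Of 13 such genes, 5 rose, 6 fell and 2 were not called, beside 34.0% of all genes higher and 35.8% lower, with a median log2 change of -0.14. Wdr5, the shared core subunit, rose by 0.67 ± 0.04, while Kmt2c, a methyltransferase of enhancers, fell by 0.71 ± 0.04 and Kdm6b, which removes the PRC2 mark, fell by 0.76 ± 0.04. CTCF and cohesin fold the clusters into separate domains. Of their 8 genes, 3 rose and 5 were not called, beside 69.8% of all genes called, with a median log2 change of 0.04. Rad21 rose by 0.18 ± 0.03 and Smc3 rose by 0.15 ± 0.03. Smc1a rose by 0.08 ± 0.03 (adjusted p = 0.0370) but was not called with DESeq2 (adjusted p = 0.0579), upper-quartile scaling (0.0841), or without Ad-Cre-GFP replicate 1 (0.0580), Ad-Cre-GFP replicate 2 (0.0839) or Ad-GFP replicate 3 (0.164).

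**Figure D4:**
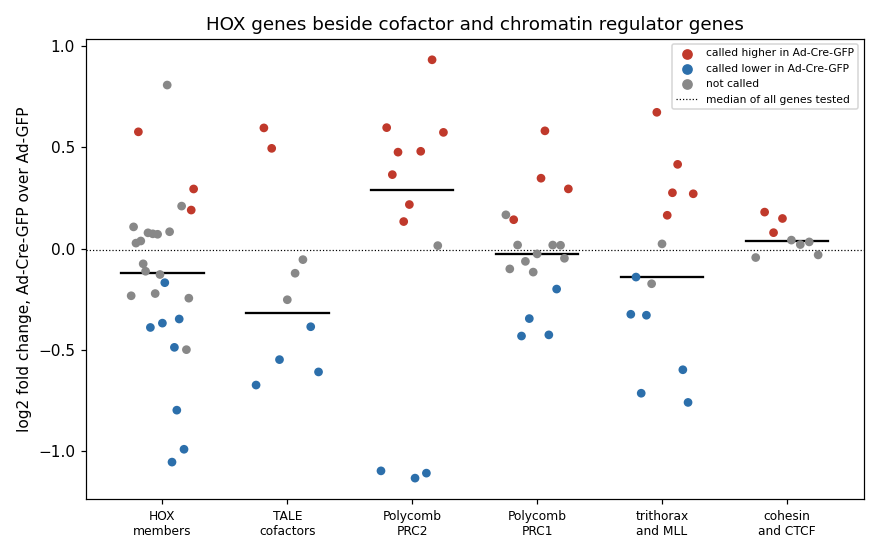
Log2 fold change (Ad-Cre-GFP over Ad-GFP, y axis) of tested HOX genes (27 drawn) and of genes of 5 lists of partners and chromatin regulators (9 TALE cofactors drawn); points are genes (red called higher, blue called lower, grey not called), bars are medians over all tested genes of a list and the dotted line is the median of all genes. The medians run from -0.32 (TALE cofactors) to 0.29 (PRC2), with -0.12 for the HOX genes.

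Retinoic acid is the classic inducer of anterior Hox genes. Of 18 genes of its synthesis, receptors and breakdown, 10 were tested, 2 rose and 8 fell, with a median log2 change of -0.57, where 34.0% of all genes were called higher and 35.8% lower. Of the 8 that fell, Rarb, Dhrs3 and Stra6 passed the filter on low counts through the Ad-GFP libraries alone. The receptor gene Rxra had 44.3, 46.0 and 43.2 CPM in Ad-Cre-GFP cells, against 69.3, 67.3 and 66.5 CPM in Ad-GFP cells, and fell by 0.61 ± 0.04 (adjusted p = 1.12e-11). The synthesis enzyme gene Aldh1a1 rose by 0.48 ± 0.03, whereas Dhrs3, which turns retinaldehyde back to retinol, had 3, 6 and 1 counts in Ad-Cre-GFP libraries and 1323, 1431 and 1301 in Ad-GFP libraries. Its fitted log2 change was -9.00, and it was -9.66 without Ad-Cre-GFP replicate 2. The receptor genes Rara, Rarb and Rarg fell by 0.58, 2.74 and 0.56. Cyp26b1, which degrades retinoic acid, rose by 6.28 ± 0.17. The last 4 are given beside the list's rule, with their values seen. Among the anterior Hox genes, Hoxb3 fell, and Hoxa2, Hoxa3 and Hoxd3 were not called. Of the untested ones, Hoxb1 had 1 count. Hoxb2 and Hoxd1 had ratios of 1.33 (0.764 to 2.35) and 2.23 (1.10 to 4.91), on few counts. Both were higher in all Ad-Cre-GFP libraries than in any Ad-GFP library, where 73.0% of all tested genes did not overlap. Of 8 Müllerian duct genes, 4 were tested, 1 higher and 3 lower, beside 34.0% of all genes called higher and 35.8% lower. Wnt5a fell by 1.66 ± 0.04, Wnt4 fell by 1.08 ± 0.09 and Emx2 fell by 0.39 ± 0.03. Wnt7a, a regulator of posterior Hoxa genes in the uterus, had 0.787, 0.669 and 0.657 CPM in Ad-Cre-GFP cells and was at 0 counts in the 3 Ad-GFP libraries. Wnt7a passed the filter on low counts through the Ad-Cre-GFP libraries alone.

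In bulk RNA, fewer cells of a type and less RNA per cell cannot be told apart. Of 10 surface epithelial and mesothelial markers all were tested, with 5 higher and 5 lower, and their sum was 2827 to 2863 CPM in Ad-Cre-GFP libraries and 2791 to 2875 CPM in Ad-GFP libraries. Beside these and the marker calls below, 69.8% of all tested genes were called, 34.0% higher and 35.8% lower. Msln rose by 1.10 ± 0.03, while Krt19 fell by 1.595 ± 0.03 and Gata4 fell by 1.37 ± 0.03. Stromal fibroblast markers summed to 22.8 to 27.3 CPM in Ad-Cre-GFP libraries and 93.2 to 96.0 CPM in Ad-GFP libraries; 3 of 5 were tested, all lower (Dcn, Pdgfra, Dpt), and Lum had 0 counts. Theca markers summed to 5.03 to 6.57 CPM in Ad-Cre-GFP libraries and 23.1 to 28.2 CPM in Ad-GFP libraries; 1 of 4 was tested (Star, lower), and Hsd3b1 had 0 counts. Pericyte and smooth muscle markers summed to 23.5 to 26.6 CPM in Ad-Cre-GFP libraries and 7.83 to 8.34 CPM in Ad-GFP libraries; 2 of 4 were tested, Mcam and Notch3, both higher, although Notch3 was not called with DESeq2 (adjusted p = 0.154) or without Ad-Cre-GFP replicate 1 (0.0845), Ad-GFP replicate 1 (0.0734) or Ad-GFP replicate 2 (0.114).

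Markers of the remaining types were low. Granulosa markers summed to 3.03 to 4.14 CPM in Ad-Cre-GFP libraries and 3.23 to 3.78 CPM in Ad-GFP libraries, with 2 higher and 1 lower of 3 tested among 5, and Fshr and Cyp19a1 at 0 counts. Endothelial markers summed to 2.15 to 2.64 CPM in Ad-Cre-GFP libraries and 0.106 to 0.470 CPM in Ad-GFP libraries, with Kdr the 1 tested of 5 and higher, and Tie1 at 0 counts. Immune markers summed to 6.59 to 7.23 CPM in Ad-Cre-GFP libraries and 10.99 to 13.1 CPM in Ad-GFP libraries, with Cd14 lower and Cd68 not called of 5, and Adgre1 at 0 counts. Markers of the oviduct summed to 2.68 to 2.98 CPM in Ad-Cre-GFP libraries and 3.40 to 4.51 CPM in Ad-GFP libraries, with Epcam lower and Ovgp1 not called of 4. None of the 3 oocyte markers was tested, with sums of 0.292 to 0.581 CPM in Ad-Cre-GFP libraries and 0.318 to 0.430 CPM in Ad-GFP libraries, and Zp3 at 0 counts. The stromal and theca sums moved down in the same libraries as the Hoxc genes, and the part of cell makeup in the Hox differences was not tested. Among the called markers, Kdr, Foxl2 and Notch3 passed the filter on low counts through the Ad-Cre-GFP libraries alone, and Lhx9, Pdgfra, Dpt and Epcam through the Ad-GFP libraries alone.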

How the data were processed

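Poly(A)-selected RNA of 6 libraries was measured. The authors deposited raw read counts for each gene, made from aligned reads per the file headers. GRCm38, sleuth 0.30.1 and kallisto 0.46.2 are named in the submitters' processing notes. The sources used here give no aligner, counting tool or treatment of strand, so genes that overlap another gene are uncertain; 16 of the 39 members share exon bases with another gene. Symbols, positions and exon lengths were taken from GENCODE mouse release 21 by gene ID (48058 of 48440 matched, and the 382 others held 0.0381% of counts). Promoters and microRNAs are from RefSeq tables.

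edgeR 4.0.16 in R 4.3.3 was used with filterByExpr and TMM scaling (robust quasi-likelihood, no replicate block), fitted and Benjamini-Hochberg adjusted over 14811 genes, with a threshold of 0.05. The test was tried on simulated counts first. SE is the log2 change divided by the square root of F. Levels per kb are CPM divided by the union of exons. DESeq2 1.42.0, limma-voom 3.58.1, other scalings and filters, a replicate block, libraries left out and libraries thinned to the smallest total (added after seeing the data) were alternatives.

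The members and lists were chosen with earlier results of these data known. Named were Lats1, Lats2, all members (in every library from a mean of 1 CPM), up to 3 called genes of each list by adjusted p, called flanking genes with an absolute log2 change of at least 1, and tested noncoding genes inside the clusters; exceptions are stated beside their values, and 2 genes under these rules are not reported here. Replicates of a group differed beyond sampling noise (chi-square per gene 2.04 to 4.27), so all 6 were kept.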

Additional observations from a re-analysis of the deposited data

How the results depend on the processing

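The counts of members called were 2 to 4 higher and 7 to 10 lower over all settings, against 3 and 9 as reported, and over all genes 4627 to 5593 higher and 4633 to 5437 lower. With 1 library left out, the members counted 2 to 4 higher and 8 to 9 lower, and all genes 4787 to 5025 higher and 4997 to 5153 lower. Of the 28 tested members, 17 kept their call and sign in all 15 settings run for single genes. Hoxd9 was also not called in thinned libraries (adjusted p = 0.0527). Hoxb13 was called with RLE scaling (0.0484) and without robust dispersion (0.0473), and Hoxb7 with upper-quartile scaling (0.0442). RLE and upper-quartile scaling moved the median of all genes by 0.0123 and -0.0126 on the log2 scale.

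Signs that turned belonged to genes that were not called. Log2 changes turned for Gm53 with RLE (0.00538), no filter (0.00993), a mean of at least 1 CPM (0.000726) and DESeq2 (0.00384), and in thinned libraries for Hoxa10 (-0.15), Hoxaas2 (0.20) and Hoxaas3 (-0.0585); the cause was not tested. With 1 library left out, they ran from -0.37 to 0.0154 for Hoxa2, -0.19 to 0.22 for Hoxa4, -0.19 to 0.18 for Hoxa6, -0.46 to 0.25 for Hoxa9, -0.0746 to 0.27 for Hoxa10, -0.12 to 0.30 for Haglr, -0.26 to 0.55 for Gm27477, -0.24 to 0.43 for Hoxaas3, -0.26 to 0.11 for Hoxaas2, -0.0397 to 0.0169 for Gm53, -0.0131 to 0.0565 for Mtx2, -0.0333 to 0.16 for Hotairm1, -0.12 to 0.39 for Hoxb5os and -0.33 to 0.10 for Gm15050.

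A replicate block gave 3 members higher and 9 lower, and 5130 genes higher and 5348 lower. Deviations of same-numbered libraries correlated at 0.0488, 0.0510 and 0.00502, against -0.0704 to 0.0227 for the other pairs. Whether same-numbered libraries share a culture or batch cannot be told from these values. With lengths of the longest transcript, the Hoxc sum was 29.1 CPM per kb in Ad-Cre-GFP cells and 41.7 in Ad-GFP cells. Depth limits the 11 untested members and those under 1 CPM.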
